A study of Mus musculus with 4 samples.

Results

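The claudins are the strand-forming proteins of the tight junction, and 8 of them (Cldn1, Cldn2, Cldn3, Cldn4, Cldn7, Cldn8, Cldn15 and Cldn23) were followed here across the epithelial cells of the mouse colon. The 8 genes were taken by symbol from the count matrices of 4 single-cell RNA libraries. They are 8 of the 55450 genes listed there and 8 of 35 genes whose symbol is Cldn and a number. Mid-colon tissue came from 7-week-old specific-pathogen-free mice. Control mice drank clean water and the others drank water with 3% dextran sulfate sodium (DSS), a chemical that injures the colonic epithelium, for 2 days. Each group had 2 libraries, named control 1, control 2, DSS 1 and DSS 2, made with a 10x Chromium 3′-end kit. The labels give neither strain nor sex. They do not say whether the libraries of a group came from separate or pooled animals, so a p-value measures the spread between libraries, which may be technical.

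Claudins are multi-pass membrane proteins that join across the space between neighbouring epithelial cells and set which ions and small molecules pass between them. Claudin-2 and claudin-15 form pores that let cations and water through. Claudin-1, claudin-3, claudin-4, claudin-7 and claudin-8 are counted among the sealing or barrier claudins, and the function of claudin-23 is less well described. In the intestine, claudin-2 is known as a protein of the crypt and claudin-4 and claudin-7 as proteins of the differentiated surface.

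The libraries held 101051573 to 109472082 unique molecular identifiers (UMIs, counted transcript molecules), and 9039 to 11591 cells each passed the filters. Pairs of libraries shared 36 to 52 cell barcodes. Levels are given as CPM, the UMIs of a gene per 1000000 UMIs summed over all cells of one kind in one library. A change is a log2 ratio from edgeR's quasi-likelihood test on these sums, called at an adjusted p under 0.05 over all genes tested. The epithelial cells fell into 12 clusters, called states here and named by marker or leading genes. These were crypt base, cycling, 2 goblet states (Spdef and Clca1), tuft, enteroendocrine, and 6 others led by Aqp4, Selenbp1, Abca12, Duox2, injury genes (Ly6g, Il1rn) and interferon-induced genes. The claudins were left out of the clustering. In single-cell sums, fewer cells with a transcript and fewer transcripts per cell are not separated.

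7 of the 8 claudins were epithelial genes in this tissue and Cldn1 was not. Of the UMIs of Cldn2 in all kept cells, 97.8% lay in epithelial cells, and the other 6 ranged from 93.8% (Cldn4) to 95.6% (Cldn3). Of the 756 Cldn1 UMIs, 9 lay in epithelial cells, a share of 1.19%. Cldn1, a sealing claudin best known from the epidermis, was instead counted in the connective tissue and in myeloid cells. A fibroblast cluster led by Igfbp3, Edil3, Adamdec1 and Fgf10 held 49.7% of its UMIs. A monocyte or macrophage cluster led by Cd209a, Ear2 and Mgl2 held 24.1%. A second fibroblast cluster, led by Inmt and Penk, held 13.4%.

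In the first fibroblast cluster the controls held 37.6 and 20.02 CPM of Cldn1, DSS 1 held 110 and DSS 2 held 16.0. DSS 1 stood above the other 3 libraries there and DSS 2 was the lowest, so the groups overlapped. In the Cd209a cluster it was 26.4 and 41.0 CPM in the controls against 15.7 and 16.2 in the DSS libraries, without overlap and with no test. The Inmt cluster also showed no overlap, with 17.1 and 14.4 CPM in the controls and 5.64 and 6.53 after DSS.

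**Figure D1:**
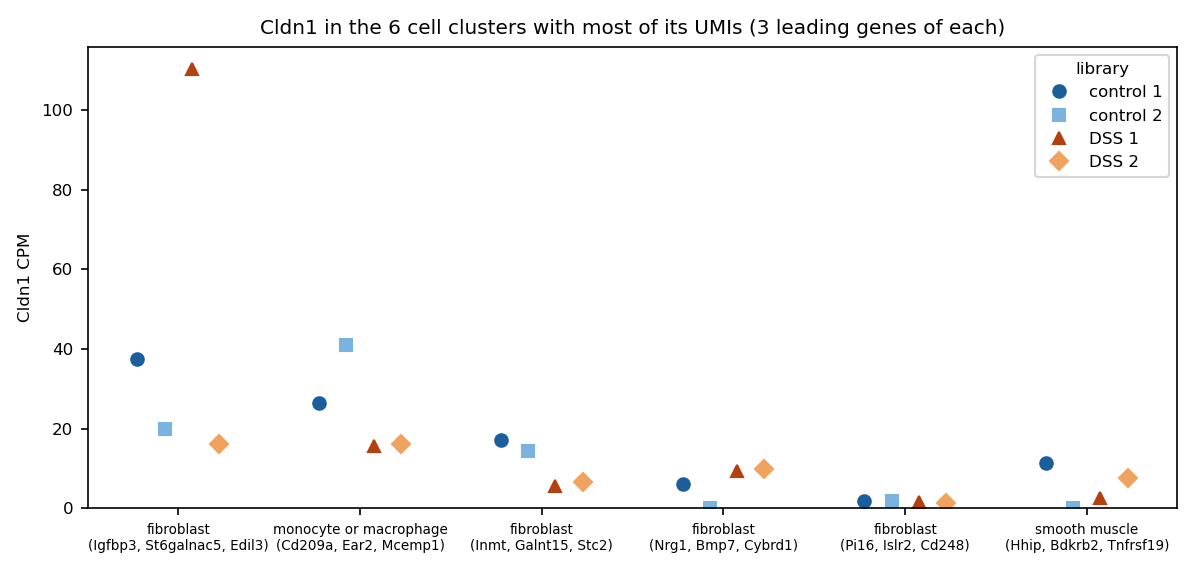
Level of Cldn1 (CPM, vertical axis) in the 6 cell clusters with most of its UMIs, 1 symbol per library; each cluster is labelled with 3 of its leading genes. The Igfbp3 fibroblast cluster of DSS 1, at 110 CPM, stands above all other points.

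Of the claudin genes outside these 8, Cldn12 was counted in the epithelium at 18.6, 15.9, 17.7 and 18.2 CPM in control 1, control 2, DSS 1 and DSS 2. Cldn5, the claudin of vessel walls, reached 776 to 1531 CPM in lymphatic endothelial cells and at most 0.482 CPM in epithelial cells.

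The pore-forming claudins Cldn2 and Cldn15 had their highest mean levels in crypt and goblet states. For Cldn2 the means of enteroendocrine (34.9 CPM) and tuft cells (33.9 CPM) stood above that of Clca1 goblet cells (14.7 CPM). Cldn2 (chromosome X, 139800828 to 139811386, plus strand, on GRCm38) and Cldn15 (chromosome 5, 136966616 to 136975858, plus strand) lie on different chromosomes. Their log2(CPM + 1) levels ran together over 44 sums of state and library, with a Pearson correlation of 0.87. This is a description over sums that share libraries and depth. The 250 bases before the RefSeq transcription start of both are shown because both genes were lower after DSS in the same classes. Capitals mark matches to a TATA box (TATAAA) in Cldn2, 35 bases before the start, and to an AP-1 motif (TGANTCA) in Cldn15, 214 bases before the start. The sequences are from RefSeq on GRCm38.p6, Cldn2 at chrX:139800558-139800807 and Cldn15 at chr5:136967619-136967868, both on the plus strand. The RefSeq start of Cldn15 lies inside the GENCODE span given above.
Cldn2: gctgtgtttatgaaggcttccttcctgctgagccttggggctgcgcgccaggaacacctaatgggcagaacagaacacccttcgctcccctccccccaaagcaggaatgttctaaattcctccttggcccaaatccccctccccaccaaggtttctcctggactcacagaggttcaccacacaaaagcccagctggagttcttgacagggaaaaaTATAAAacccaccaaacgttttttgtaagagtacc
Cldn15: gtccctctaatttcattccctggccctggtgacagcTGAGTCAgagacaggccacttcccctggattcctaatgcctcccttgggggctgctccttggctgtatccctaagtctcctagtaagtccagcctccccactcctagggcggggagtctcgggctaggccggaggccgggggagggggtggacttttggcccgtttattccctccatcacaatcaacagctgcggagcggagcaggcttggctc
Both strands were searched. Of 32851 RefSeq promoters of this length, 12.4% held the TATA box and 6.75% held the AP-1 motif. The CDX motif TTTATNG was held by 9.81% of them. The TCF/LEF motif CTTTGA was held by 13.8%. The HNF4 motif CAAAGTCCA was held by 0.384%. The GRHL motif AACCNGTT was held by 1.79%. These last 4 did not occur in the windows of the 6 claudins with an entry. A match is a stretch of letters and not a binding site.

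Cldn2 was highest in the cells of the crypt. In the crypt base state it stood at 148 CPM in control 1 and 166 in control 2, and at 46.0 in DSS 1 and 52.5 in DSS 2. The cycling state gave nearly the same 4 values, 148, 166, 48.8 and 50.3 CPM. Spdef goblet cells followed with 80.03, 77.8, 37.3 and 25.2 CPM. These first 3 states did not differ beyond the spread over libraries, which includes the difference between the groups, although the crypt base was above the Spdef goblet state in 4 of 4 libraries. In Clca1 goblet cells the level was 27.2, 17.9, 7.05 and 6.56 CPM, and tuft cells held 76.1, 39.4, 4.52 and 15.7 CPM. Enteroendocrine cells held 22.1, 73.4 and 9.34 CPM in control 1, control 2 and DSS 2. The surface states were at the bottom: the mean over libraries was 1.73 CPM in Abca12, 1.42 in Duox2 and 0.805 in Selenbp1 colonocytes. T cells, taken here as the level that free RNA gives, held 0.984 to 9.02 CPM of Cldn2, so the surface means are not above that range. In control 1 alone, Abca12 (3.68 CPM) and Duox2 cells (3.59 CPM) stood above the T cells of the same library.

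The share of cells with a Cldn2 UMI was also lower in both DSS libraries. After every cell was thinned to 2000 UMIs, 24.4% and 22.1% of the crypt base cells of the controls held a Cldn2 UMI, against 8.16% and 11.1% in DSS 1 and DSS 2. Without thinning, at a median of 14202 UMIs per cell, the shares were 75.8%, 65.8%, 27.8% and 35.6%. In T cells, at a median of 2675 UMIs, the thinned share was 0.0967% to 0.518% and the unthinned 0.263% to 1.48%. The thinned DSS shares rest on 49 and 36 crypt base cells and the unthinned DSS shares on 54 and 45.

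Cldn15 extended further into the goblet states than Cldn2. It was highest in Spdef goblet cells, at 300, 258, 183 and 152 CPM in control 1, control 2, DSS 1 and DSS 2, beyond the spread to the next state and higher in 4 of 4 libraries. Clca1 goblet cells (155 ± 61.9 CPM, SD, n = 4), the crypt base (147 ± 52.5) and the cycling state (141 ± 50.05) came next and did not differ beyond their spread. Aqp4 colonocytes held less, at 73.3, 61.6, 37.2 and 105 CPM. Enteroendocrine cells held 16.5, 93.0 and 50.1 CPM of Cldn15 in control 1, control 2 and DSS 2. The lowest level was in Duox2 surface cells at 3.22 ± 1.26 CPM, below the 5.29 to 16.0 CPM of T cells.

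In Aqp4 colonocytes Cldn2 was 11.8, 10.2, 4.31 and 34.5 CPM, and DSS 2 was the highest of the 4. The values of DSS 1 and DSS 2 lay on either side of both controls, and edgeR gave a log2 change of 0.64 ± 0.72 (SE), adjusted p = 0.981.

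**Figure D2:**
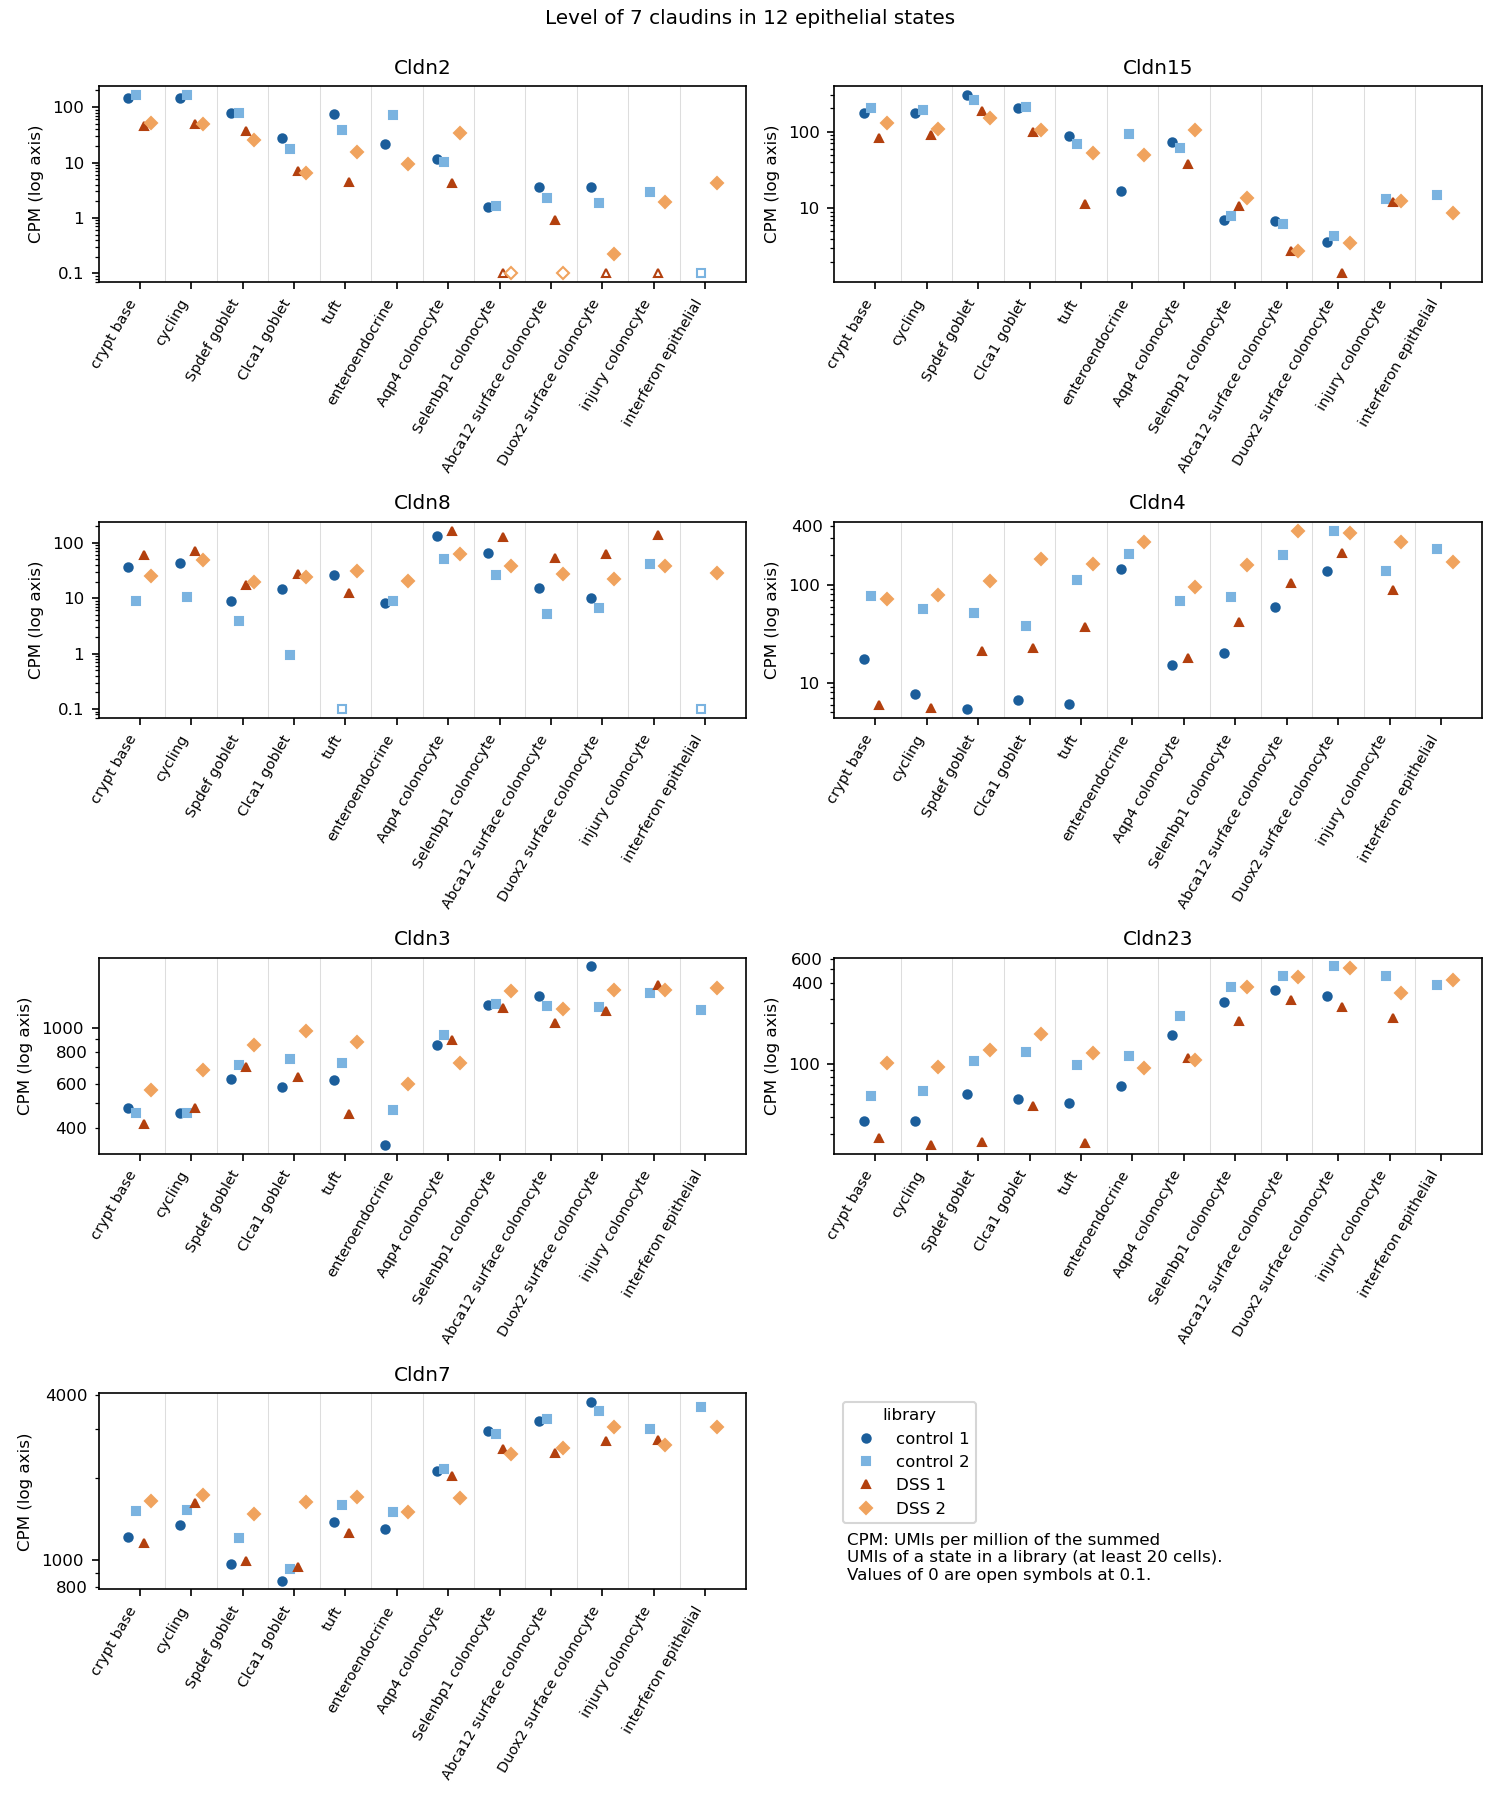
Level of 7 claudins (CPM on a log axis) in 12 epithelial states, 1 symbol per library where the state held at least 20 of its cells, with values of 0 as open symbols at the bottom. Cldn2 and Cldn15 are high on the left (crypt and goblet states), Cldn3, Cldn7 and Cldn23 on the right (surface, injury and interferon states).

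After 2 days of DSS, Cldn2 fell in the progenitors, a class of 2 clusters of a coarser clustering, close to the crypt base and cycling states. It stood at 147 and 166 CPM in the control libraries and at 48.0 and 50.8 in the DSS libraries, so the groups did not overlap. The change was -1.62 ± 0.23 (log2, SE, edgeR adjusted p = 0.0185). Of the 8 claudins, 7 were tested and 1 was called in progenitors, where 0.779% of all genes tested were called. Within the crypt base state alone the change of Cldn2 was -1.62 ± 0.33 (adjusted p = 0.0114, edgeR), and 0.937% of genes were called there. In the crypt base the change missed the threshold when DSS 1 was left out (-1.71, edgeR adjusted p = 0.126) and when DSS 2 was left out (-1.59, edgeR adjusted p = 0.189). In progenitors it did so when DSS 2 was left out (-1.64, edgeR adjusted p = 0.0814). The size of the change moved little in each. The cycling state was not tested alone, since DSS 1 held 25 such cells and the minimum was 30.

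The DSS progenitors differed from control progenitors in their defining markers as well. Lgr5 and Ascl2, the stem cell receptor and transcription factor of the crypt base, stood at 29.2 and 41.0 CPM in control 1 and at 53.9 and 77.5 in control 2, and had 0 UMIs in both DSS libraries. A count of 0 allows up to 2.18 CPM in DSS 1 and 0.643 in DSS 2. The 12 crypt base markers summed to 1649 and 2330 CPM in the controls against 635 and 530 after DSS. Each was lower in both DSS libraries than in both controls except Tnfrsf19, whose 0.614 CPM in control 1 is under what a count of 0 allows in the DSS libraries. Slc12a2, the chloride-loading cotransporter whose levels were most like those of Cldn2 over the 44 sums (r = 0.96), was among them, at 938, 1211, 354 and 286 CPM. Mki67, a proliferation marker, stood at 221, 384, 333 and 399 CPM. The DSS sums rest on 78 and 190 cells, against 1684 and 701 in the controls. Immune markers other than immunoglobulins summed to 221 and 342 CPM in control progenitors and to 499 and 394 after DSS, with 28 to 31 of 34 genes of the whole list detected. Markers of other epithelial cells moved as well. The 13 surface colonocyte markers summed to 1711 and 3392 CPM in control progenitors and to 3582 and 6281 after DSS, and the 7 pan-epithelial markers to 7198 and 7459 against 9641 and 12600. All genes of both lists were detected in each library. The part of these crypt base, surface, epithelial and immune markers in the Cldn2 result was not tested.

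Cldn15 stood lower in the DSS progenitors without passing the test. Its levels were 175 and 197 CPM in the controls and 83.7 and 114 after DSS, without overlap, with a change of -0.87 ± 0.24 (edgeR adjusted p = 0.157). The 2 genes together made up 14.997% and 14.6% of the UMIs of the 8 claudins in control progenitors and 6.37% and 5.90% in DSS progenitors. The exact 95% binomial intervals, which cover counting error only, ran from 14.2% to 15.3% in the controls and from 5.50% to 7.33% in the DSS libraries.

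Goblet cells, the mucus-secreting lineage, showed lower values of both pore-forming genes and no call. Cldn2 was 56.5 and 69.7 CPM in the controls and 9.78 and 16.2 after DSS, a change of -2.15 ± 0.22 that missed the threshold (edgeR adjusted p = 0.0800). DESeq2 gave -2.15 as well, with an adjusted p of 5.73e-09, and edgeR without DSS 2 gave -2.37 (adjusted p = 0.0100). Cldn15 was 258 and 254 CPM against 106 and 129, a change of -0.99 ± 0.24 (edgeR adjusted p = 0.181, DESeq2 0.00834). The groups did not overlap for either gene, but an exact permutation test of 2 libraries against 2 cannot go below p = 0.333333. edgeR called 0% of the genes in goblet cells, 1889 of 13182 had an unadjusted p under 0.05, and DESeq2 called 482. In Clca1 goblet cells alone the changes were -1.85 ± 0.35 for Cldn2 (edgeR adjusted p = 0.178) and -1.09 ± 0.25 for Cldn15 (0.208), again with 0% of genes called. Without DSS 1 the Cldn2 change of this state was -2.08 (edgeR adjusted p = 2.90e-04). The share of Cldn2 and Cldn15 in the claudin UMIs of goblet cells was 16.5% and 13.7% in the controls and 6.44% and 4.98% after DSS. Goblet cells of DSS 1 carried many immunoglobulin transcripts: the immune markers summed to 11168 CPM there, against 646 to 3333 in the other libraries, and to 644 against 376 to 530 without immunoglobulins. The crypt base markers summed to 936 and 1214 CPM in control goblet cells and to 340 and 352 after DSS, and the surface colonocyte markers to 2483, 4354, 5725 and 8667 CPM. The class also held its states in unequal numbers. Spdef goblet cells numbered 600 and 324 in the controls and 25 and 187 after DSS, against 526, 68, 325 and 166 Clca1 cells. Spdef cells held more Cldn2 than Clca1 cells in every library, as given above. The part of these markers and of this makeup in the goblet values was not tested.

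Tuft cells, chemosensory cells of the epithelium, held 76.1 and 39.4 CPM of Cldn2 in the controls and 4.52 and 15.7 after DSS. The change was -2.52 ± 0.56 (edgeR adjusted p = 0.102), and 0.131% of genes were called there. The DSS values rest on 4 and 12 UMIs. Without each library in turn the change ranged from -3.51 to -1.80 and passed the edgeR test in 3 of 4, with an adjusted p of 0.9999 without control 1. The crypt base markers summed to 1225 and 1459 CPM in the tuft cells of the controls and to 567 and 405 after DSS. Mesenchymal markers summed to 748, 223, 1214 and 2337 CPM there, with 14 or 15 of 15 genes detected. The part of these markers in the tuft values was not tested.

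In colonocytes the pore-forming claudins were low and no claudin was called. Cldn2 was 6.81, 2.28, 2.48 and 7.89 CPM, where T cells of the same libraries held 2.41, 9.02, 1.06 and 0.984, with overlapping groups and a change of 0.14 ± 0.68 (edgeR adjusted p = 0.975). Cldn15 was 37.0, 9.40, 24.8 and 29.1 CPM, against 9.65, 16.0, 5.29 and 9.51 in T cells. Both genes were above the T cell level in 3 of 4 libraries and below it in control 2. edgeR called 0 of 15056 genes in colonocytes, 0%, with 1156 at an unadjusted p under 0.05, and DESeq2 called 189. The libraries filled the colonocyte states unequally. Abca12 surface cells were 16.8% and 38.7% of the epithelial cells in the controls and 6.32% and 5.86% after DSS, and Aqp4 colonocytes were 11.8%, 2.44%, 28.5% and 13.5%. The part of this makeup in the class values was not tested.

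Summed over all epithelial cells, Cldn2 was 74.0 and 39.1 CPM in the controls and 6.99 and 12.5 after DSS, a change of -2.42 ± 0.42 with an edgeR adjusted p of 0.374. 0.0113% of genes were called in that sum and no claudin was among them. The makeup of the epithelium differed between libraries: crypt base cells were 21.9% and 8.27% of epithelial cells in the controls and 3.79% and 1.23% after DSS. When the 7 states with at least 30 cells in every library were given equal weight, the log2 ratio was -1.57 for Cldn2, -0.78 for Cldn15 and 0.89 for Cldn8. These ratios have no test.

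**Figure D3:**
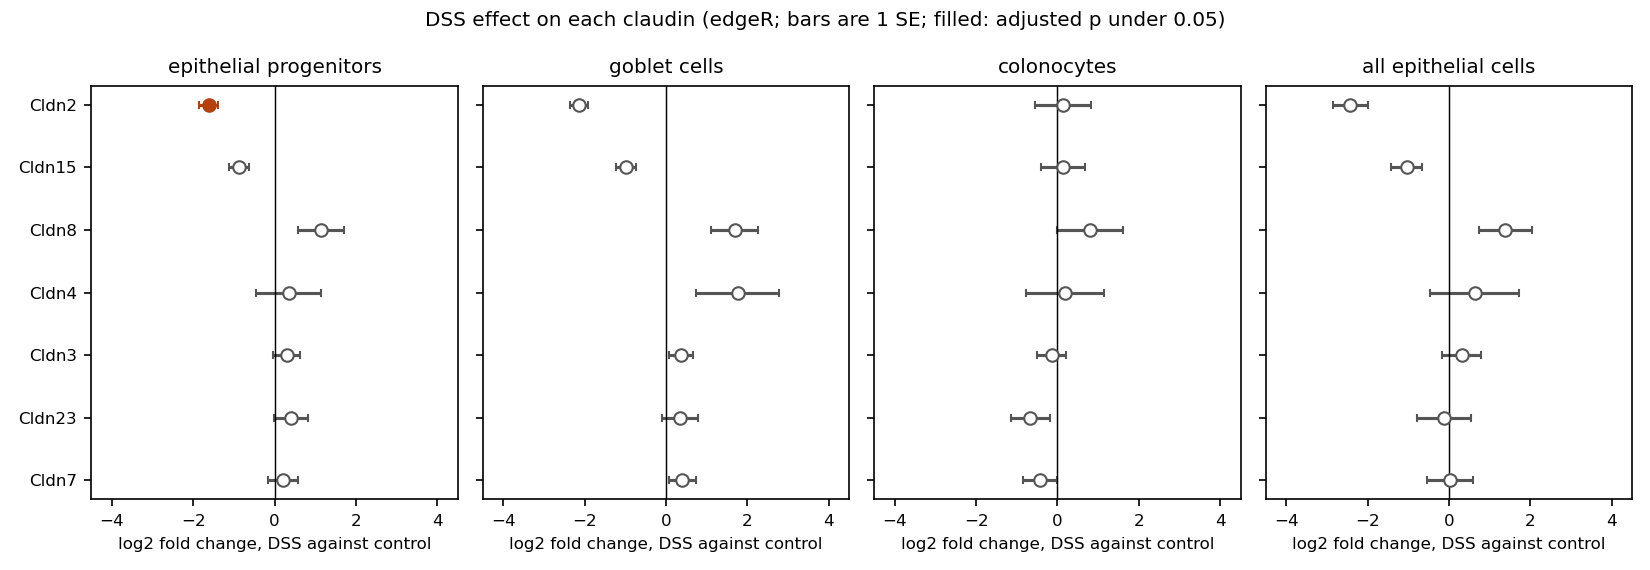
Log2 fold change of DSS against control (horizontal axis) for 7 claudins in 3 epithelial classes and in all epithelial cells, with bars of 1 SE from edgeR; the filled point passed an adjusted p of 0.05. Cldn2 in progenitors, at -1.62, is the filled point.

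**Figure D4:**
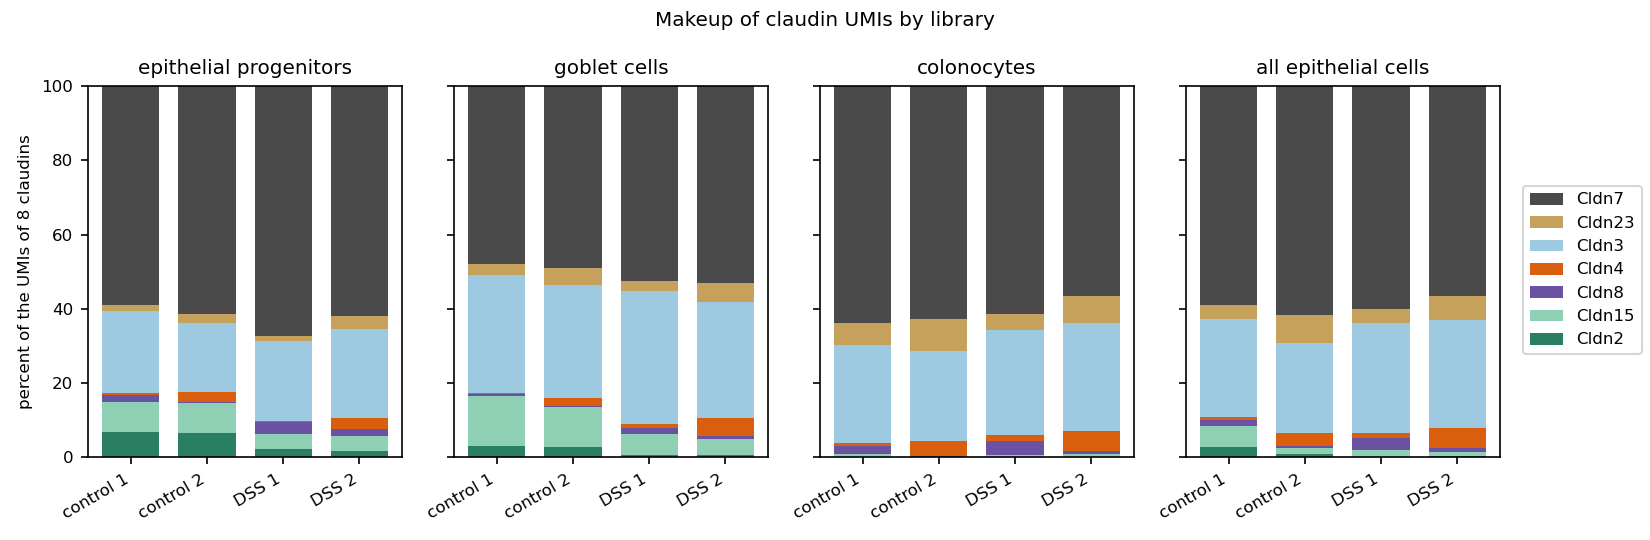
Percent of the UMIs of the 8 claudins held by each (vertical axis) in every library, by class; Cldn1 is too rare to be seen. Cldn2 and Cldn15, at the foot of the bars, shrink from 14.997% and 14.6% of progenitor claudin UMIs in the controls to 6.37% and 5.90% after DSS.

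The DSS effect on Cldn2 and Cldn4 differed between classes, by an interaction test within libraries. For Cldn2 the log2 change was higher in colonocytes than in progenitors by 1.82 ± 0.46 (edgeR adjusted p = 0.0269) and lower in goblet cells than in colonocytes (-2.30 ± 0.53, adjusted p = 0.0425). These comparisons called 7.08% and 6.31% of all genes tested, beside 1 and 2 of the 7 claudins tested. In colonocytes Cldn2 was only 6.81, 2.28, 2.48 and 7.89 CPM in control 1, control 2, DSS 1 and DSS 2. In control 2 this was below the T cell level. The difference for Cldn2 between goblet cells and progenitors was -0.56 ± 0.19 (edgeR adjusted p = 0.255). Both Cldn2 calls were lost without DSS 2, the library with 34.5 CPM in Aqp4 colonocytes, at 0.76 and -1.54.

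The barrier claudin Cldn8 marked the Aqp4 colonocytes, although its neighbours in the order were within the spread. Cldn8 (chromosome 16, 88560828 to 88563183, minus strand, 1 exon) stood at 133, 51.8, 165 and 61.8 CPM in this state. Aqp4 encodes a water channel, and the same state is led by Hao2 and Sult1c2. Injury colonocytes held 41.1 CPM in control 2, 137 in DSS 1 and 37.3 in DSS 2, and Selenbp1 colonocytes 65.5, 26.5, 129 and 38.7 CPM. Control 1 was above control 2 in 9 of 10 states that both filled, and DSS 1 was above DSS 2 in 8 of 10. Goblet and tuft cells were low, at 12.4 to 17.5 CPM on average, where T cells held 5.01 to 20.7 CPM.

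After DSS, Cldn8 was higher in most classes and passed the edgeR test in none. In goblet cells it was 11.5 and 3.63 CPM in the controls and 25.8 and 21.4 after DSS, a change of 1.69 ± 0.58 (adjusted p = 0.276). In progenitors the values were 39.0, 9.39, 64.1 and 46.7 CPM, also without overlap (change 1.13 ± 0.56, edgeR adjusted p = 0.453). Without each library in turn the progenitor change ranged from 0.38 (without control 2, edgeR adjusted p = 0.581) to 2.68 (without control 1, 0.0272), and 1 of the 4 fits passed. The surface states gave larger changes. In Duox2 surface cells Cldn8 was 10.1 and 6.60 CPM in the controls and 62.4 and 22.5 after DSS, a change of 2.25 ± 0.55 (edgeR adjusted p = 0.182, DESeq2 0.0198), with 0.123% of genes called. Abca12 surface cells gave 15.3, 5.24, 53.1 and 27.2 CPM and a change of 2.01 ± 0.57 (edgeR adjusted p = 0.321), with 0.0979% of genes called. The control levels of goblet cells and of both surface states lay within or below the T cell range given above. These ratios therefore rest on control levels no higher than the background. Without each library in turn the Abca12 change ranged from 1.32 to 2.91, and it passed only without control 1 (edgeR adjusted p = 1.84e-11, against up to 0.592 in the others). The Duox2 change ranged from 1.32 to 2.91 as well, and it passed only without DSS 2 (edgeR adjusted p = 3.56e-04, against up to 0.301). In colonocytes as a class the groups overlapped, at 82.8, 15.2, 140 and 40.4 CPM.

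Cldn4, a barrier claudin and a receptor of Clostridium perfringens enterotoxin, had its highest means in Duox2 surface cells and enteroendocrine cells. It lies on chromosome 5 (134945119 to 134946934, minus strand, 1 exon), 39279 bases from the start of Cldn3, with 0 annotated genes between them. Its promoter window is shown because it held 2 AP-1 matches (TGANTCA, in capitals), 240 and 158 bases before the start, where 6.75% of all promoters hold any. The window is chr5:134946935-134947184 on the minus strand (RefSeq, GRCm38.p6).
Cldn4: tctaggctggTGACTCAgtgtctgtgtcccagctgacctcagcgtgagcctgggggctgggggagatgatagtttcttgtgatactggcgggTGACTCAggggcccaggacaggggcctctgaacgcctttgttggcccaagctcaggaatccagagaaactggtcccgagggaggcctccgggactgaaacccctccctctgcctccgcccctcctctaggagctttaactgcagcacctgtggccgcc
Duox2 surface cells had the highest mean of Cldn4 at 261 ± 104 CPM (SD, n = 4), with 139, 357, 214 and 337 CPM in control 1, control 2, DSS 1 and DSS 2. Enteroendocrine cells, the hormone-secreting lineage, followed with 146, 204 and 273 CPM in control 1, control 2 and DSS 2. Interferon, Abca12 and injury cells came next, and none of these 5 states differed from its neighbour beyond the spread. The crypt base (43.0 ± 36.3 CPM) and the cycling state (37.1 ± 36.5) were lowest, and T cells held 0 to 40.3 CPM.

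Cldn4 differed more between libraries of 1 group than between the groups. Control 2 was above control 1 in 10 of 10 states and DSS 2 above DSS 1 in 10 of 10. In progenitors the 4 values were 13.7, 67.5, 5.82 and 83.6 CPM, with a change of 0.34 ± 0.79 (edgeR adjusted p = 0.898). Without DSS 2 this change turned to -2.66 (edgeR adjusted p = 0.0217). In colonocytes they were 33.6, 192, 54.5 and 239 CPM. In goblet cells they were 5.93, 49.98, 22.7 and 146 CPM, a change of 1.76 ± 1.01 (edgeR adjusted p = 0.504) that ranged from 0.14 to 3.72 without each library in turn. T cells showed the same order of libraries, at 0, 31.1, 8.04 and 40.3 CPM.

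The interaction test, which compares classes within each library, found the DSS change of Cldn4 to be higher in goblet cells than in progenitors by 1.72 ± 0.30 (edgeR adjusted p = 0.0266), where 1.04% of genes were called. Against colonocytes the goblet change was higher by 1.497 ± 0.23 (edgeR adjusted p = 0.0126). DSS 1 progenitors held only 8 UMIs of Cldn4 (5.82 CPM), below the T cell level of that library. Both differences kept their sign without each library in turn, the first at up to 2.88 without DSS 2. The first was at an adjusted p of 0.0527 without DSS 1, and the second at 0.0671 without DSS 2 (edgeR).

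Cldn3, Cldn7 and Cldn23 were higher in differentiated colonocytes than in the crypt, and DSS changed none of them by the test. Cldn7 (chromosome 11, 69964779 to 69967885, plus strand), which is found along the lateral membrane as well as at the tight junction, was 3775, 3501, 2713 and 3063 CPM in Duox2 surface cells. In Aqp4 colonocytes it was 2108, 2147, 2036 and 1691 CPM and in the crypt base 1215, 1515, 1155 and 1641. The steps from the Selenbp1 to the Aqp4 state and from the Aqp4 to the cycling state exceeded the spread over libraries. The goblet states were lowest, at 1158 ± 231 CPM for Spdef and 1087 ± 367 for Clca1 cells. T cells held 310 to 448 CPM of Cldn7.

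Cldn3 (chromosome 5, 134986214 to 134987472, plus strand, 1 exon) was also higher at the surface than in the crypt. The Duox2 state held 1761, 1212, 1167 and 1413 CPM and the crypt base 479, 460, 415 and 563. Injury, Duox2, interferon, Selenbp1 and Abca12 cells did not differ beyond their spread, from 1428 to 1203 CPM on average, and the step down to Aqp4 colonocytes (852 ± 90.9 CPM) did, in 4 of 4 libraries. Unlike those of Cldn7, the goblet means of Cldn3 (722 ± 95.7 CPM for Spdef and 736 ± 171 for Clca1 cells) stood above those of the crypt base (479) and cycling states (519). Enteroendocrine cells had the lowest mean, 469 ± 127 CPM. The annotated antisense gene Wbscr25 overlaps the last 40 bases of Cldn3 on the opposite strand.

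Cldn23 (chromosome 8, 35824712 to 35826559, minus strand) was also low in the crypt and high at the surface. It was 37.4, 57.7, 28.2 and 101 CPM in the crypt base and 319, 527, 264 and 514 in Duox2 surface cells. The step from the Selenbp1 (308 ± 78.9 CPM) to the Aqp4 state (151 ± 56.3) exceeded the spread. Its levels ran with those of Cldn3 (r = 0.89) and Cldn7 (r = 0.87) over the 44 sums, and against those of Cldn2 (r = -0.77).

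In colonocytes the change after DSS was -0.43 ± 0.41 for Cldn7 (edgeR adjusted p = 0.804), from 2677 and 3161 CPM to 2294 and 2482 without overlap. It was -0.66 ± 0.48 for Cldn23 (adjusted p = 0.740, edgeR) with 245, 434, 164 and 313 CPM. Cldn3 stood at 1116, 1225, 1062 and 1278 CPM, a change of -0.14 ± 0.36 (edgeR adjusted p = 0.938). In progenitors and goblet cells the changes of these 3 genes lay between 0.21 and 0.42, with overlapping groups in each. Cldn7 contributed 56.5% to 61.6% of the claudin UMIs of all epithelial cells in the 4 libraries. UMIs count captured transcript molecules and were not divided by gene length. These shares were read between libraries and not between claudins.

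The injury state, led by Ly6g and Il1rn, held 39.9% of the epithelial cells of DSS 2, 8.77% of DSS 1 and 2.31% of control 2. Cldn3, Cldn7 and Cldn23 were high there, as in the surface states. Cldn3 stood at 1382, 1480 and 1423 CPM in control 2, DSS 1 and DSS 2, Cldn7 at 3000, 2743 and 2631, and Cldn23 at 450, 219 and 337. Cldn2 was 2.99, 0 and 1.92 CPM there. Cldn15 was 13.1, 12.2 and 12.4 CPM, against 4.33, 1.42 and 3.56 in the Duox2 state of control 2, DSS 1 and DSS 2. The injury value of control 2 and the Duox2 values were below the T cell levels of the same libraries. Cldn8 of the injury state was 41.1, 137 and 37.3 CPM, above the 6.60, 62.4 and 22.5 of Duox2 cells in control 2, DSS 1 and DSS 2. Cldn4 was 140, 87.9 and 273 CPM, below the 357, 214 and 337 of Duox2 cells.

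The genes whose log2(CPM + 1) was most like that of each claudin over the 44 sums, among 8584 genes, were Slc12a2 (0.96) and 9130208D14Rik (0.95) for Cldn2. For Cldn15 they were Utp11 (0.96) and Sec11c (0.95), a subunit of the signal peptidase. Fgfbp1 (0.80) and Chchd10 (0.76) were nearest to Cldn8, and Fam43a and Ncoa7 (both 0.88) to Cldn4. Slc44a4 (0.94) and Tspan1 (0.93) were nearest to Cldn3. For Cldn7 they were Nudt4 and Ccni (both 0.96). Slc39a4, a zinc importer, and Chp1 (both 0.95) were nearest to Cldn23. These are Pearson correlations given as a description.

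Of the other junction genes, 1 passed the test in 1 state. This was the crypt base, where 24 tight junction proteins other than claudins, 14 genes of adherens junctions and desmosomes and 11 claudin partners were tested and 0.937% of all genes were called. Lsr, which encodes the angulin of tricellular junctions, fell in the crypt base by 2.14 on the log2 scale (SE 0.45, edgeR adjusted p = 0.0162). It was 120 and 206 CPM in the controls and 54.8 and 8.41 in DSS 1 and DSS 2, the last from 4 UMIs. The 12 crypt base markers of this state summed to 1856 and 2644 CPM in the controls and to 753 and 807 after DSS. The part of this difference in the Lsr value was not tested. Like Cldn2, Lsr was higher in goblet than in surface cells, with 163 CPM in the Spdef goblet cells of control 2 and 9.69 in its Duox2 surface cells. Of the 25 tight junction proteins other than claudins, 24 were tested in progenitors and 0 were called in either direction, with a median log2 change of 0.09 against -0.01 over all genes tested. In goblet cells 25 were tested and 0 called, 21 were higher and 4 lower, and the median was 0.38 against 0.00. The 15 genes of adherens junctions and desmosomes gave 0 calls in progenitors, colonocytes and goblet cells, with medians of 0.33, -0.23 and 0.61. The 13 partners and regulators of claudins gave 0 calls in these 3 classes.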

How the data were processed

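Single-cell RNA of mid-colon was analysed in 4 libraries, 2 per group, from 12 files. The deposited values are UMI counts per gene and cell barcode, made by the authors with Cell Ranger 6.1.1 on GRCm38, per the submitters' processing notes. All 55450 gene identifiers and symbols matched GENCODE M21. Barcodes were kept from 500 UMIs and 250 genes upward if mitochondrial UMIs did not exceed 25% (9039 to 11591 per library), and predicted doublets (3.03% to 5.38%) were removed. Cells were clustered with scanpy 1.11.5 and leidenalg 0.10.2 (Python 3.11.15, scipy 1.17.1) without claudin and junction genes. A cluster was assigned to a class when at least 3 markers of a type were met. The states were labelled after clustering, by genes that led each cluster. Classes came from resolution 1 and states from resolution 2 of the clustering of all cells. A cluster of 72 cells, all from control 2, was led by small intestine genes (Sis, Fabp6, Npc1l1). It was left unnamed and out of the epithelial cells, a choice made after its leading genes were seen. A second clustering of the epithelial cells was planned for the states and is reported as an alternative, because its clusters followed the libraries.

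Counts were summed per library and class or state with at least 30 cells in every library, and tested with edgeR 4.0.16 (R 4.3.3, TMM scaling, filterByExpr, quasi-likelihood F test, two-sided, Benjamini-Hochberg adjustment over all genes tested). DESeq2 1.42.0 was an alternative. The edgeR step was tested on simulated data. An exact permutation test of 2 libraries against 2 cannot go below p = 0.333333, so groups without overlap are weak evidence alone. The share of all genes without overlap is not given. Differences between classes used a class by treatment term with the library as a block. Shares of cells with a UMI were also computed after thinning each cell to 2000 UMIs. Levels of states with under 20 cells in a library were left out. Named genes are the 8 claudins, the junction genes past the threshold and the 2 genes most like each claudin. Names used for clusters, markers in library sums and genes chosen for contrast (Cldn5, Cldn12, Slc12a2, Mki67) stand beside them. The claudins, the gene lists and the rules were chosen with earlier results of these data known.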

Additional observations from a re-analysis of the deposited data

Results flagged for a closer look

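The DSS effect on a claudin differed between classes of epithelial cells in 4 tests of the difference (edgeR interaction with the library as a block, 2 libraries per group). For Cldn2 the log2 change was higher in colonocytes than in progenitors by 1.82 (adjusted p = 0.0269, edgeR) and differed by -2.30 between goblet cells and colonocytes (adjusted p = 0.0425, edgeR). For Cldn4 it was higher in goblet cells than in progenitors by 1.72 (adjusted p = 0.0266, edgeR) and than in colonocytes by 1.497 (adjusted p = 0.0126, edgeR). Without 1 library in turn, these ranged from 0.76 to 2.59, from -3.06 to -1.54, from 1.44 to 2.88 and from 1.41 to 1.63. Colonocytes held little Cldn2, at most 7.89 CPM (DSS 2), and in control 2 less than T cells. Progenitors of DSS 1 held 8 UMIs of Cldn4, 5.82 CPM, less than the T cells of that library.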

How the results depend on the processing

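The fall of Cldn2 in progenitors kept its sign in every alternative run. The number of claudins called in all epithelial cells, 0, became 1 with DESeq2 and 2 with no filter on low counts, and was 0 to 1 without each library in turn. In progenitors it was 1, then 2 with no filter, and 1 to 2 without each library. In colonocytes it was 0, and 0 to 1 without each library. In goblet cells 0 became 2 with DESeq2 and 4 with no filter, and was 0 to 1 without each library. Over single states, 1 pair of claudin and state became 3 with DESeq2 and 4 to 6 without each library. The 4 differences between classes became 1 to 12 without each library. Each comparison of classes tested 7 claudins. The 12 arose without control 1, where a larger share of all genes tested was called in each comparison as well. The 1 arose without DSS 2, where a smaller share of all genes was called in each. These moves in the class differences were therefore not particular to claudins. The cause of the moves in all these counts was not tested.

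The state with the highest mean was kept by 4 of the 7 claudins with at most 10% mitochondrial UMIs, by 4 with the second clustering, and by 4 to 7 without each library. With the second clustering Cldn4 was highest in enteroendocrine cells, at 204 CPM. Small changes turned sign: Cldn23 in all epithelial cells was 0.17 with at most 10% mitochondrial UMIs, and Cldn2 in colonocytes -0.0054 with doublets kept. Without each library, the change in all epithelial cells ranged from -0.97 to 2.98 for Cldn4, from -0.31 to 0.50 for Cldn7 and from -0.84 to 0.98 for Cldn23. In progenitors it ranged from -2.66 to 1.72 for Cldn4 and from -0.77 to 0.97 for Cldn23. In colonocytes it ranged from -0.97 to 0.97 for Cldn2, from -0.32 to 0.046 for Cldn3, from -1.27 to 2.12 for Cldn4, from -0.32 to 2.29 for Cldn8 and from -0.48 to 1.26 for Cldn15. In goblet cells Cldn23 ranged from -0.47 to 0.83. Where 1 library remained in a group, it was assumed to vary like the other group.

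The replicate numbers were not counted as a pairing, since only 2 pairs exist and no label ties them to a shared animal or day. Deviations of same-numbered libraries correlated at 0.39 in all epithelial cells and 0.25 in progenitors. With the replicate number as a block, the number of claudins called was 3 in progenitors, 3 in goblet cells and 9 over single states, and the change was 0.0084 for Cldn23 in all epithelial cells and -0.056 for Cldn4 in progenitors. With this replicate block, 831 genes were called in progenitors and 825 in goblet cells, against 101 and 0 without it. In single states it called 15 genes (Aqp4 colonocytes) to 649 (Clca1 goblet cells), against 0 to 104 without it.

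Over all genes, the calls moved with the test: DESeq2 called 238, 264, 189 and 482 genes in all epithelial cells, progenitors, colonocytes and goblet cells, and edgeR with no filter 498, 625, 442 and 1281, against 2, 101, 0 and 0. Without each library edgeR called 0 to 79, 46 to 466, 0 to 739 and 0 to 239.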
